A study of Mus musculus with 9 samples.

Results

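The genes of the oxygen-sensing arm of the hypoxia-inducible factor (HIF) pathway were examined in the mouse retina. They comprise the HIF subunits Hif1a, Epas1, Hif3a, Arnt, and Arnt2, the ubiquitin ligase subunit Vhl, and the hydroxylases Egln1, Egln2, Egln3, and Hif1an. They were chosen by gene name, as a functional family. All 10 were found among the 54532 genes counted, and all 10 passed the filter on low counts that left 17540 genes for testing. Retinal RNA was sequenced from wild type C57BL/6 mice at postnatal day (P) 17, with 3 mice in each of 3 groups. Control mice were kept in room air and are labelled with DMSO. OIR mice underwent oxygen-induced retinopathy, in which pups are exposed to high oxygen and then returned to room air, where the poorly vascularized retina becomes hypoxic and grows abnormal vessels. They are labelled hypoxia with DMSO, the vehicle. OIR+32-134D mice underwent the same model and received the HIF inhibitor 32-134D as 1 intraocular injection at P12 (labelled 70 ng, with the concentration given elsewhere in the labels as 70 ng/µl). The injection text is repeated on every sample, so whether control eyes were injected is not settled by the labels. Mice are named here by group and the number in their label, and a number shared between groups does not pair animals.

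HIF binds DNA as a pair of proteins. The α partner is destroyed while oxygen is plentiful, the β partner (ARNT) is there at all times, and the pair switches on genes such as those of sugar breakdown and vessel growth. When oxygen is present, prolyl hydroxylases encoded by the Egln genes mark the α subunit for VHL, which directs its degradation, and the asparaginyl hydroxylase FIH blocks its recruitment of coactivators. In hypoxia these enzymes lose activity and the α protein accumulates, so the α subunits are controlled largely at the protein level, which RNA counts do not measure. Some hydroxylase genes, Egln3 and Egln1 among them, are themselves HIF targets and form a feedback loop.

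The core of the DNA element that HIF recognizes is RCGTG, where R is A or G. Both spellings, ACGTG and GCGTG, were searched on both strands in RefSeq promoter windows (mouse GRCm38.p6, 250 bases before to 50 after each start). Of the 10 genes, 9 had a window, Egln2 having a pair of them, and Epas1 had none. At least 1 match was found for 6 of these 9 genes, namely Hif1a, Hif3a, Arnt, Egln1, Egln2, and Egln3, and none for Arnt2, Vhl, or Hif1an. Over all 32851 windows, 19.6% held ACGTG, 32.4% held GCGTG, and 43.8% held either. The 3 prolyl hydroxylase promoters are shown because their genes gave 3 different patterns across the groups. All are written on the minus strand, the strand of the gene, with capitals marking each core match. Egln1 is shown for chr8:124949305-124949504, Egln2 for its first window at chr7:27166793-27167052, and Egln3 for chr12:54203865-54204124.
Egln1: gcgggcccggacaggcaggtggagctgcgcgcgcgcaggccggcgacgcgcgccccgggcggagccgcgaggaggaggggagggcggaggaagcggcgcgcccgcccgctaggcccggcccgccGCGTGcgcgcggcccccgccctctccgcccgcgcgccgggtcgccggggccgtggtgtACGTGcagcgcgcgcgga
Egln2: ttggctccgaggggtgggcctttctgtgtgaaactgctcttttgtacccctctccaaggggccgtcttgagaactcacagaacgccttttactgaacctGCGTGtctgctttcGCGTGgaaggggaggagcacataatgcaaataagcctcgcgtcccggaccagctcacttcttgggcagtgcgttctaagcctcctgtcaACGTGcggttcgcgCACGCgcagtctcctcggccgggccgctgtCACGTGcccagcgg
Egln3: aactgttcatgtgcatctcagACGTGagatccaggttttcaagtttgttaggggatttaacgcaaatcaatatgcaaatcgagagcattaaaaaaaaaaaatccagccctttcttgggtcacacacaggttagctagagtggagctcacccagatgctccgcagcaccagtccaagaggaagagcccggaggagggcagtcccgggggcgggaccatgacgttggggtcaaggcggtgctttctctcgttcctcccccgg
Egln1 held 2 matches, which began 126 and 68 bases before the RefSeq start, in a stretch that was 85.5% G or C. Egln2 held 6 matches in its first window, and the last pair, 4 and 3 bases before the start, overlapped as the palindrome CACGTG read on each strand. The second Egln2 window held 1 match. Egln3 held a single ACGTG, 229 bases before the start. A match describes these letters only and does not mark a bound site, and enhancers outside the windows were not searched.

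Libraries held 16864135 to 27213184 counts (control), 18556723 to 21071371 (OIR), and 16028731 to 18560178 (OIR+32-134D), and each member had at least 98 counts in every mouse. The tissue label was checked with markers of Müller glia, the main glial cell of the retina. All 5 of 5 were found, and they summed to 3147 to 8503 CPM (counts scaled to the size of the library) in each mouse. OIR+32-134D mouse 2 stood apart. Its 8 of 8 lens markers, crystallins among them, summed to 100529 CPM, against 6.01 to 764 CPM in the other mice. The edgeR log2 differences of members that moved most when it was left out, those of Egln3 and Egln1, are given with and without it. Genotype, strain, and age were the same for all mice, whereas sex, read from the counts, was not balanced (1 female of 3 in control, 1 of 3 in OIR, and 2 of 3 in OIR+32-134D).

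Levels of different genes were compared per gene length, as RPKM, which is CPM divided by the gene length in kilobases. Hif1a was the most abundant member in control retina, at 93.2 ± 9.55 RPKM (SD, n = 3). Egln1 followed at 36.7 ± 5.53 RPKM and Epas1 at 33.6 ± 2.15 RPKM, and the ranges of these neighbors overlapped. Below them came Egln2 (24.0 ± 1.06 RPKM), Vhl (18.9 ± 1.499 RPKM), and Hif1an (14.1 ± 2.02 RPKM), each separated from the next by a gap between ranges. Arnt was at 5.62 ± 0.38 RPKM. Arnt2 (3.67 ± 0.55 RPKM) and Egln3 (2.87 ± 0.44 RPKM) overlapped each other, and Hif3a was lowest at 1.54 ± 0.40 RPKM. Egln3 thus held rank 9 of 10 in control retina, and by group mean it stood at rank 7 in OIR (15.6 ± 13.2 RPKM) and rank 4 in OIR+32-134D (29.5 ± 36.3 RPKM). Its range overlapped those of both its neighbors in rank in each of these groups, and the SD nearly equaled or exceeded the mean. The first 3 places were held by Hif1a, Egln1, and Epas1 in each group, although in OIR+32-134D the range of Egln1, through mouse 2 at 103 RPKM, reached that of Hif1a.

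**Figure D1:**
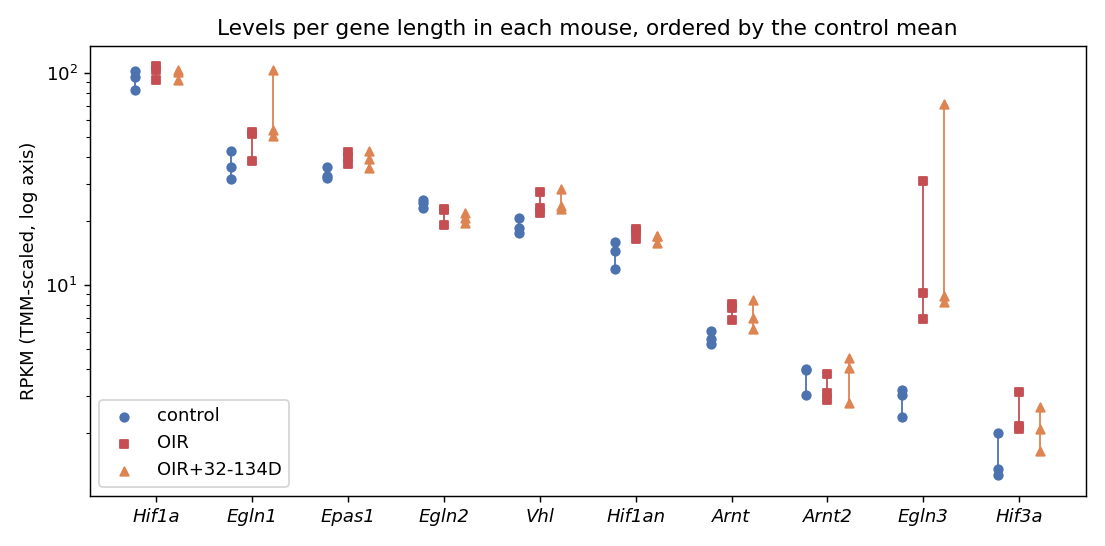
RPKM per mouse (log axis) for the 10 genes, ordered by control mean, with 1 symbol per mouse and a line joining the lowest and highest mouse of each group (n = 3). Hif1a is highest in control at 93.2 RPKM and Hif3a lowest at 1.54, and Egln3 spans 8.26 to 71.3 RPKM in OIR+32-134D.

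Within a gene, values are log2 CPM. The α subunits were examined first. Hif1a encodes HIF-1α (ENSMUSG00000021109, GRCm38 chr12:73901375-73947530, plus strand). Control mice 1, 6, and 7 had Hif1a at 8.93, 9.13, and 9.23, OIR mice 3, 5, and 6 had it at 9.30, 9.09, and 9.24, and OIR+32-134D mice 2, 5, and 10 had it at 9.10, 9.24, and 9.22, an order kept for all members. The 3 groups overlapped, and the lowest value was that of a control mouse. The OIR − control log2 difference was 0.11 ± 0.12 (SE, 95% interval −0.16 to 0.39), and that of OIR+32-134D − OIR was −0.03 ± 0.12 (−0.30 to 0.24). Neither passed the test (edgeR's quasi-likelihood test, adjusted p = 0.606 and 0.9998). In the annotation, 330 exon bases of Hif1a are shared with the antisense gene Gm15283 and 148 with Gm49321, and the strand used in counting is not given in the sources used here.

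Epas1 encodes HIF-2α, the α subunit most associated with vascular cells (ENSMUSG00000024140, chr17:86753907-86833410, plus strand, as deposited). Epas1 was 7.41, 7.44, and 7.58 in control, 7.82, 7.73, and 7.62 in OIR, and 7.56, 7.83, and 7.70 in OIR+32-134D mice. OIR did not overlap control and was the higher, whereas 1 OIR+32-134D mouse, mouse 2, lay inside the control range. The log2 difference was 0.25 ± 0.11 for OIR − control (0.01 to 0.48, adjusted p = 0.194) and −0.03 ± 0.11 for OIR+32-134D − OIR (−0.27 to 0.21, adjusted p = 0.9998), by edgeR. Because these are bulk samples, fewer cells of a type and less RNA per cell cannot be told apart, here or for any other member.

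Hif3a encodes an α-subunit relative with several splice forms, some of which antagonize HIF (ENSMUSG00000004328, chr7:17031507-17062427, minus strand). Hif3a was 3.10, 3.75, and 3.20 in control, 3.82, 4.40, and 3.87 in OIR, and 4.17, 3.82, and 3.47 in OIR+32-134D mice. OIR lay above control without overlap, and OIR+32-134D overlapped both. The OIR − control log2 difference was 0.68 ± 0.26 (0.09 to 1.26) and did not pass edgeR's test (adjusted p = 0.160). The OIR+32-134D − control difference was 0.47, or 0.28 without OIR+32-134D mouse 2. The OIR+32-134D − OIR difference was −0.21, or −0.37 without that mouse. The deposited counts are per gene, so splice forms were not separated.

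The ratio of Hif1a to Epas1, per gene length, was 2.59, 2.91, and 2.83 in control, 2.52, 2.33, and 2.76 in OIR, and 2.62, 2.40, and 2.59 in OIR+32-134D mice. On the log2 scale the mean was 1.47 ± 0.09, 1.34 ± 0.12, and 1.34 ± 0.07 (SD, n = 3), and the groups overlapped. The OIR − control difference of −0.13 had an exact two-sided permutation p = 0.2 and an adjusted p = 0.45 over 9 tests of 3 ratios. With 3 mice against 3 the smallest p this test allows is 0.1.

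The β subunits pair with the α subunits to bind DNA. Arnt encodes HIF-1β (ENSMUSG00000015522, chr3:95434388-95497240, plus strand). Arnt was 5.48, 5.60, and 5.41 in control, 5.77, 6.03, and 5.96 in OIR, and 6.09, 5.63, and 5.80 in OIR+32-134D mice. Both OIR groups lay above control without overlap, with the log2 difference at 0.43 ± 0.13 for OIR (0.13 to 0.73) and 0.36 ± 0.13 for OIR+32-134D (0.06 to 0.66). By edgeR with all 9 mice neither passed (adjusted p = 0.106 and 0.213). Without OIR+32-134D mouse 2 the second difference was 0.23. In OIR against control Arnt passed with DESeq2 on the 6 mice (0.0381), with edgeR on the 6 mice (0.0471), and with edgeR without OIR+32-134D mouse 2 (0.0309), but not with DESeq2 or limma-voom on all 9.

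Arnt2, the β subunit relative found mainly in neurons (ENSMUSG00000015709, chr7:84246278-84410176, minus strand), had another pattern. Arnt2 was 4.55, 4.95, and 4.94 in control, 4.87, 4.46, and 4.58 in OIR, and 4.42, 4.96, and 5.12 in OIR+32-134D mice. The groups overlapped throughout, and the OIR − control log2 difference was −0.18 ± 0.20 (−0.63 to 0.28, edgeR adjusted p = 0.634). The OIR+32-134D − control difference was 0.04, or 0.23 without OIR+32-134D mouse 2. The OIR+32-134D − OIR difference was 0.22, or 0.42 without that mouse. In the annotation 214 exon bases of Arnt2 are shared with the antisense gene Gm30873. The log2 ratio of Arnt2 to Arnt was −0.87, −0.59, and −0.41 in control, −0.85, −1.52, and −1.32 in OIR, and −1.62, −0.61, and −0.63 in OIR+32-134D mice. OIR mice 5 and 6 and OIR+32-134D mouse 2 were thus below all control mice and the other 3 mice were inside the control range. The OIR − control difference of −0.60 had an exact permutation p = 0.2 (adjusted p = 0.45), and the OIR+32-134D − control difference of −0.33 became 0.00392 without mouse 2.

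Vhl encodes the substrate-recognition subunit of the ligase that degrades hydroxylated HIF-α (ENSMUSG00000033933, chr6:113623959-113631633, plus strand). Vhl was 5.73, 5.80, and 5.95 in control, 6.12, 6.02, and 6.36 in OIR, and 6.40, 6.10, and 6.15 in OIR+32-134D mice. All 6 OIR-model mice lay above all 3 control mice. The log2 difference from control was 0.35 ± 0.12 in OIR (0.07 to 0.62) and 0.40 ± 0.12 in OIR+32-134D (0.12 to 0.67), and the direct difference between the OIR groups was 0.05 ± 0.12 (−0.23 to 0.32). None passed edgeR's test (adjusted p = 0.136, 0.171, and 0.9998).

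Among the prolyl hydroxylases, Egln1 encodes PHD2, the main oxygen sensor of most cells (ENSMUSG00000031987, chr8:124908587-124949324, minus strand). Egln1 was 6.82, 7.02, and 7.26 in control, 7.53, 7.10, and 7.56 in OIR, and 8.53, 7.58, and 7.49 in OIR+32-134D mice. OIR mouse 5 was inside the control range, and OIR+32-134D mouse 2 stood at 2.81 times the control mean CPM, against 1.46 and 1.37 times in mice 5 and 10. The log2 difference was 0.37 ± 0.27 for OIR − control (−0.24 to 0.98, edgeR adjusted p = 0.442). It was 0.91 ± 0.27 for OIR+32-134D − control (0.29 to 1.52, adjusted p = 0.169), which came to 0.51 without mouse 2. Between the OIR groups it was 0.54, or 0.15 without mouse 2. In OIR+32-134D against control, DESeq2 called Egln1 with all 9 mice (adjusted p = 0.0378) but not with the 6 mice (0.0853). With those 2 groups less mouse 2, a setting chosen after seeing the data, it also called Egln1 (0.0184). Between the OIR groups, DESeq2 on the 6 mice did not call it (adjusted p = 0.9998).

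Egln2 encodes PHD1 (ENSMUSG00000058709, chr7:27158658-27166802, minus strand) and was the 1 member with every OIR-model mouse below every control mouse. Egln2 was 6.00, 6.13, and 6.09 in control, 5.74, 6.00, and 5.98 in OIR, and 5.86, 5.94, and 5.78 in OIR+32-134D mice. The margin was narrow, since the highest OIR mouse had 63.9 CPM and the lowest control mouse 64.1 CPM. The log2 difference from control was −0.16 ± 0.10 in OIR (−0.38 to 0.05) and −0.21 ± 0.10 in OIR+32-134D (−0.43 to 0.00440), without passing edgeR's test (adjusted p = 0.333 and 0.276). In the annotation 11 exon bases of Egln2 are shared with Cyp2t4 on the opposite strand.

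Egln3 encodes PHD3, the family member whose RNA is most strongly induced by hypoxia in many cells (ENSMUSG00000035105, chr12:54178981-54203860, minus strand). Egln3 was 3.03, 3.11, and 2.68 in control, 4.61, 4.21, and 6.36 in OIR, and 7.57, 4.56, and 4.47 in OIR+32-134D mice. All 6 OIR-model mice were above all control mice, 4 of them within a narrow band and 1 mouse of each group far above it. As a multiple of the control mean CPM, Egln3 was 3.18, 2.41, and 10.8 in OIR mice 3, 5, and 6. It was 24.9, 3.08, and 2.88 in OIR+32-134D mice 2, 5, and 10. The log2 difference was 2.44 ± 0.90 for OIR − control (0.41 to 4.47) and 3.35 ± 0.93 for OIR+32-134D − control (1.26 to 5.45), with adjusted p = 0.149 for each by edgeR on all 9 mice. These comparisons share the control mice. Without OIR mouse 6 the first difference was 1.48, and without OIR+32-134D mouse 2 the second was 1.58.

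The call for Egln3 depended on which mice entered the fit. In OIR against control it passed with DESeq2 on the 6 mice (adjusted p = 0.00430), with edgeR on the 6 mice (0.0299), and with edgeR on all but OIR+32-134D mouse 2 (0.0152). For OIR+32-134D against control DESeq2 gave no p for Egln3 because mouse 2 was past its outlier limit, the Cook's distance cutoff. With that cutoff off the adjusted p was 0.0395, and with mouse 2 left out it was 1.15e-08 at a log2 difference of 1.57, both settings chosen after seeing the data. Between the OIR groups the log2 difference was 0.91 ± 0.84 (−0.99 to 2.82, edgeR adjusted p = 0.9998). It was −0.84 without OIR+32-134D mouse 2 and 1.88 without OIR mouse 6, so its direction rested on single mice.

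Egln3 made up 5.28%, 4.99%, and 3.44% of the summed RPKM of Egln1, Egln2, and Egln3 in control mice. The share was 11.5%, 10.2%, and 29.2% in OIR and 36.6%, 10.5%, and 10.6% in OIR+32-134D mice. The lowest OIR-model mouse thus had a larger share than any control mouse, and the means were 4.57% ± 0.99, 16.9% ± 10.6, and 19.2% ± 15.02 (SD, n = 3). Neither OIR group overlapped control (exact two-sided permutation p = 0.1, adjusted p = 0.45). With 3 mice against 3, groups that do not overlap always give this smallest p, so it adds nothing to the ranges. The OIR groups overlapped each other (p = 0.8 by the same exact test, adjusted p = 0.9).

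**Figure D2:**
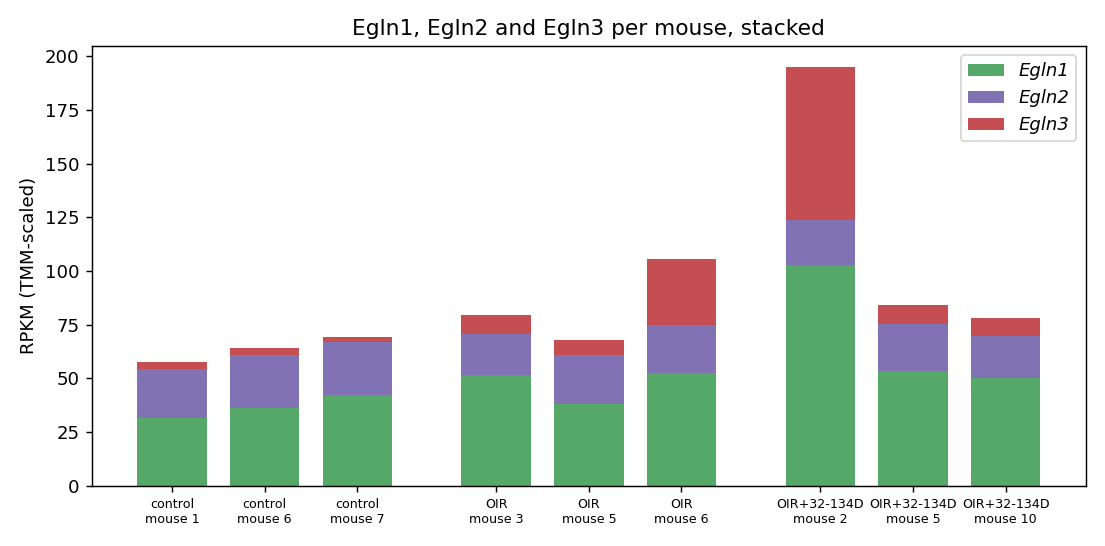
Stacked RPKM of Egln1, Egln2, and Egln3 in each of the 9 mice, with 1 bar per mouse starting at 0. The Egln3 segment is 3.44% to 5.28% of the bar in control mice, 10.2% to 29.2% in OIR, and 10.5% to 36.6% in OIR+32-134D, with OIR mouse 6 and OIR+32-134D mouse 2 the tallest bars.

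Markers of several cell types differed in the same mice as Egln3. In OIR mouse 6 and OIR+32-134D mouse 2, the mice with the highest Egln3, the 5 of 5 endothelial markers summed to 52.0 and 58.2 CPM, against 100.1 to 122 CPM in control and 112 to 244 CPM in the other OIR-model mice. The 5 of 5 pericyte markers summed to 86.2 and 97.5 CPM in these mice, against 179.8 to 190.3 CPM in control and 177 to 419.9 CPM in the rest. The 5 of 5 ganglion cell markers summed to 90.6 and 38.4 CPM, against 1042 to 1492 CPM in control and 295 to 832 CPM in the rest. Astrocyte markers, 4 of 4, summed to 785 and 481 CPM in them, against 105 to 267 CPM in control and 161 to 388 CPM in the rest. A sum is weighted to its most abundant marker. By the mean log2 CPM of the 4 markers, OIR+32-134D mouse 2 (5.11) was below OIR mouse 5 (5.16). Rod, cone, pigment epithelium, and amacrine sums were also lowest in OIR mouse 6 and OIR+32-134D mouse 2. Rod sums were 33356.5 and 38719 CPM in them, against at least 41393 CPM in the other mice. Cone sums were 787 and 886 CPM, against at least 962 CPM, and pigment epithelium sums 115 and 147 CPM, against at least 164 CPM. Müller glia sums went opposite ways, highest in OIR mouse 6 (8503 CPM) and lowest in OIR+32-134D mouse 2 (3147 CPM). The lens sum was high in OIR+32-134D mouse 2, as above, but was 33.2 CPM in OIR mouse 6. No defining marker of these lists was at 0 in all mice. The part of these differences in the Egln3 values was not tested. The remaining 4 OIR-model mice, with Egln3 at 2.41 to 3.18 times the control mean, had endothelial sums above those of at least 2 of the 3 control mice.

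Some marker sums also differed between whole groups. Amacrine markers, 5 of 5, summed to 531 to 724 CPM in control, 135 to 263 CPM in OIR, and 136 to 479 CPM in OIR+32-134D mice. The 5 of 5 Müller glia markers summed to 5521 to 5972 CPM in control, 6759 to 8503 CPM in OIR, and 3147 to 5422 CPM in OIR+32-134D mice. The 5 of 5 red blood cell markers were at 74.6 to 133 CPM in control, 9.45 to 58.1 CPM in OIR, and 53.8 to 169 CPM in OIR+32-134D mice. Amacrine and red blood cell sums were thus lower in every OIR mouse than in any control mouse, and Müller glia and astrocyte sums were higher. Ganglion cell sums were also lower, and bipolar sums higher (1254 to 1335 CPM in OIR, 928 to 1099 CPM in control). In every OIR+32-134D mouse, amacrine, ganglion cell, and Müller glia sums were below those of any control mouse. The part of these differences in the values of any member was not tested.

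Hif1an encodes FIH, the asparaginyl hydroxylase (ENSMUSG00000036450, chr19:44562850-44576274, plus strand). Hif1an was 6.30, 6.72, and 6.58 in control, 6.89, 6.92, and 6.76 in OIR, and 6.81, 6.81, and 6.70 in OIR+32-134D mice. OIR lay above control without overlap, and OIR+32-134D mouse 10 lay just inside the control range. The log2 difference from control was 0.32 ± 0.11 in OIR (0.06 to 0.58) and 0.23 ± 0.11 in OIR+32-134D (−0.03 to 0.49), with edgeR adjusted p = 0.139 and 0.306.

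**Figure D3:**
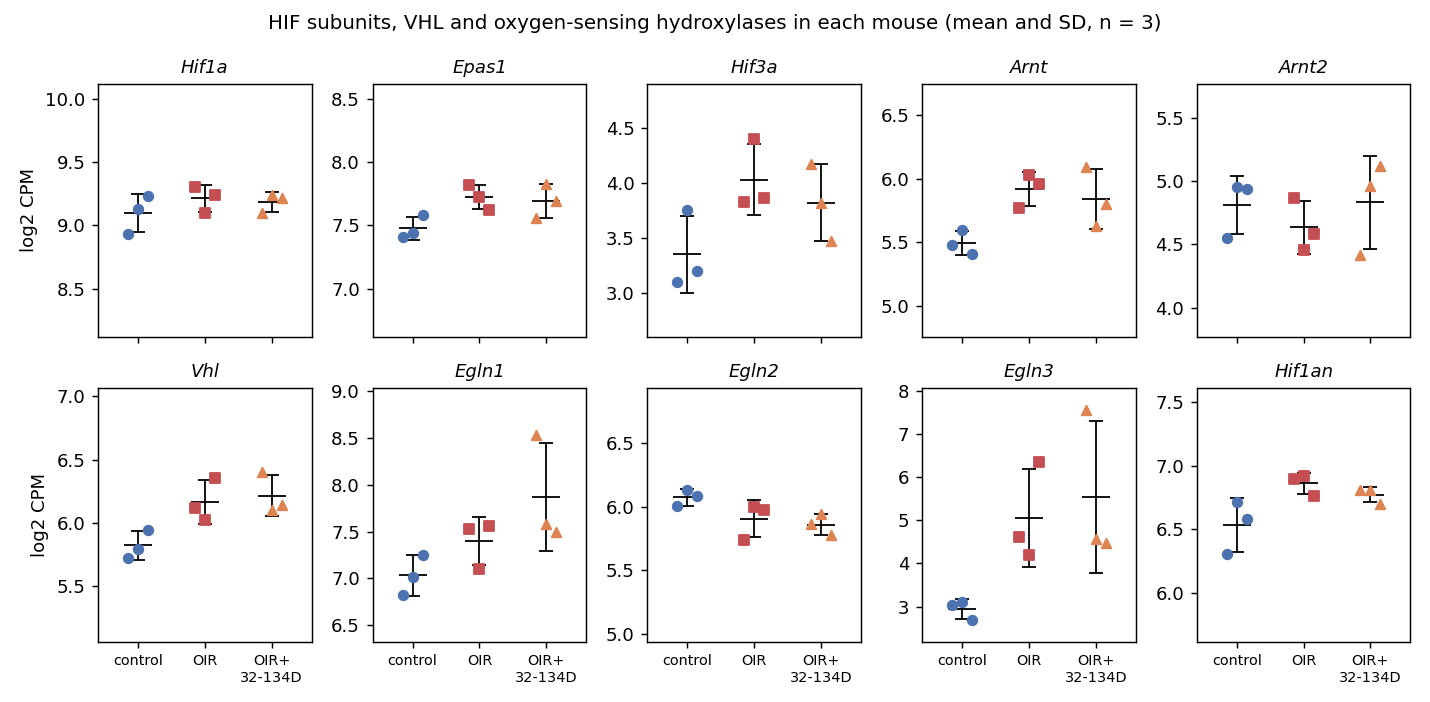
Log2 CPM of each of the 10 genes in each mouse, 1 panel per gene with its own axis, with group mean and SD (n = 3). Hif1a overlaps among groups between 8.93 and 9.30, whereas Egln3 runs from 2.68 in a control mouse to 7.57 in OIR+32-134D mouse 2.

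Across the 10 members, edgeR on all 9 mice called none in OIR against control, where 0.941% of the 17540 genes tested were called. That background was unstable. The 165 genes behind it became 0 when any 1 control or OIR mouse, or OIR+32-134D mouse 5, was left out. The count was 196 without OIR+32-134D mouse 10, 2272 without OIR+32-134D mouse 2, and 0 with sex as a covariate. Why it moved was not tested. An unadjusted p below 0.05 was found for 6 members, each of them higher (Epas1, Hif3a, Arnt, Vhl, Egln3, and Hif1an), and for 23.8% of all genes in either direction (11.1% higher). The same 6 had groups that did not overlap and were higher in OIR, against 15.9% of all genes, and Egln2 was lower without overlap, against 17.2%. DESeq2 on the 6 mice called 2, Arnt and Egln3, against 14.3% of genes. The median log2 difference of the members was 0.33, beside 0.03 over all genes tested, and 8 of 10 were above 0.

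With OIR+32-134D set against control, edgeR called 0 of 10 members and 0.0228% of all genes. An unadjusted p below 0.05 was found for 4 members, each of them higher (Arnt, Vhl, Egln1, and Egln3), and for 18.6% of all genes. These 4 were also without overlap, against 12.8% of all genes, and Egln2 was lower without overlap, against 12.2%. DESeq2 on the 6 mice called 0 members, with no p given for Egln3, and 1.74% of genes. With the Cook's cutoff off it called 1, Egln3, and 1.91% of genes. The median log2 difference of the members was 0.30, beside 0.01 over all genes, with 9 of 10 above 0.

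In OIR+32-134D against OIR, the comparison that asks what the inhibitor did to these RNAs, edgeR called 0 of 10 members and 0.00% of all genes. No member had an unadjusted p below 0.05 by edgeR, against 4.69% of all genes. DESeq2 on the 6 mice called 0 members and 0.381% of genes, and it gave no p for Egln3. With the Cook's cutoff off, a setting chosen after seeing the data, the DESeq2 adjusted p of Egln3 was 0.9998. The groups overlapped for all 10 members, whereas 3.74% of all genes were higher and 5.39% lower without overlap. The median log2 difference was −0.03, beside 0.01 over all genes, and 4 of 10 were above 0. For 8 members the 95% interval lay between −0.79 (the lower end for Hif3a) and 0.67 (the upper end for Arnt2), and the interval was wider upward for Egln1 (−0.07 to 1.15, around the 0.54 given above) and in both directions for Egln3. The comparison does not show that these levels were alike.

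**Figure D4:**
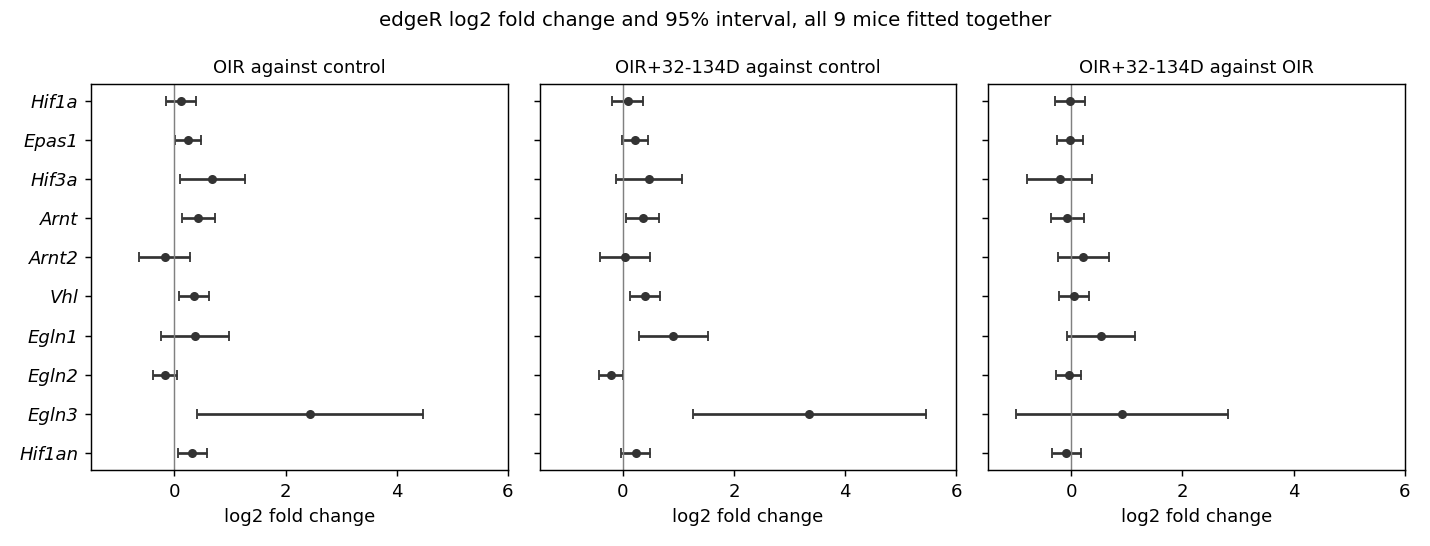
Log2 fold change (edgeR, all 9 mice) with its 95% interval for each gene in the 3 comparisons, with a vertical line at 0. Egln3 has the largest values (2.44, 3.35, and 0.91) and the widest intervals, and every interval in OIR+32-134D against OIR includes 0.

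The genes around the sensor were described through 4 lists that hold no member, each by its counts and median. The all-gene shares given above, in either direction, are the background for the 3 comparisons. They were 23.8%, 18.6%, and 4.69% at an unadjusted p below 0.05 by edgeR and 14.3%, 1.74%, and 0.381% called by DESeq2. The medians over all genes were 0.03, 0.01, and 0.01. Of 20 HIF targets, all tested, 2 rose in OIR against control by edgeR. Adm, the vasodilator peptide adrenomedullin, rose by 2.84 ± 0.53 on the log2 scale (adjusted p = 0.0496), and Ndufa4l2, a mitochondrial subunit relative, by 2.13 ± 0.35 (adjusted p = 0.0408). Neither was called once any control or OIR mouse, or OIR+32-134D mouse 5, was left out, and with sex as a covariate, an alternative for the lists chosen after seeing the data, 0 of all genes were called. Vegfa, the angiogenic factor (0.94 ± 0.22), and Ndrg1 (0.85 ± 0.21) had edgeR adjusted p = 0.0676 and 0.0724. In all, 19 of 20 targets were above 0, with a median of 0.25 beside 0.03 over all genes. DESeq2 on the 6 mice called 6 of them, all higher, against 5.03% of all genes called higher. Without OIR+32-134D mouse 2 edgeR called 5 (Adm, Ndrg1, Ndufa4l2, Pfkfb3, and Vegfa), where 12.5% of all genes were called.

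When OIR+32-134D was set against control, 0 of the 20 targets were called by edgeR, 13 were higher at an unadjusted p below 0.05, and the median was 0.71. DESeq2 on the 6 mice called 5, all higher, against 0.897% of all genes called higher. The smallest p values belonged to Ndufa4l2 (2.93 ± 0.36), Adm (3.48 ± 0.55), Vegfa (1.41 ± 0.22), and Kdm3a, a histone demethylase (0.65 ± 0.12), with edgeR adjusted p = 0.0586 for the first and 0.102 for the others. Between the OIR groups 0 were called by edgeR or by DESeq2. By edgeR 3 were higher at an unadjusted p below 0.05 (Kdm3a, Ero1l, and Ndufa4l2), against 2.39% of all genes. In all, 19 of 20 were above 0 with a median of 0.36, beside 0.01 over all genes. Much of this rested on OIR+32-134D mouse 2. Without it, the median against control was 0.36 rather than 0.71, with 16 of 20 above 0 and 10 higher at an unadjusted p below 0.05 (7.23% of all genes). In that fit edgeR called Ndufa4l2 and Vegfa, where 0.0166% of all genes were called. Between the OIR groups without that mouse the median was 0.03, with 12 of 20 above 0 and 1 higher at an unadjusted p below 0.05, where 8.35% of all genes were.

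Of 14 partners of the HIF and VHL proteins, edgeR and DESeq2 called 0 in each comparison. Eloc, the elongin C subunit of the VHL ligase, had −0.34 ± 0.09 in OIR against control (edgeR adjusted p = 0.0817), and Ep300, a HIF coactivator, had 0.24 ± 0.09 (0.149). They were the 2 with an unadjusted p below 0.05. The list's median was −0.08, and 4 of 14 were above 0. The same pair in OIR+32-134D against control had −0.24 ± 0.09 and 0.26 ± 0.09, and between the OIR groups 0 of 14 had an unadjusted p below 0.05 by edgeR.

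Of 11 other genes of the bHLH-PAS family, to which the HIF subunits belong, 9 were tested, Sim1 and Sim2 being too low. By edgeR 0 were called. Ahr, the aryl hydrocarbon receptor that also pairs with ARNT, had 1.05 ± 0.36 in OIR against control (adjusted p = 0.130), its repressor Ahrr 1.03 ± 0.33 (0.114), Npas3 0.94 ± 0.33 (0.138), and the clock gene Arntl 0.31 ± 0.07 (0.0644). These 4 had an unadjusted p below 0.05 by edgeR, and DESeq2 on the 6 mice called 3, Ahr, Ahrr, and Npas3. An unadjusted p below 0.05 by edgeR was found for 2 in OIR+32-134D against control, and DESeq2 called 0. The median was 0.22 in OIR and 0.28 in OIR+32-134D against control, and −0.07 between the OIR groups, where 0 of 9 had an unadjusted p below 0.05.

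Of 16 other oxygen-dependent dioxygenases, all tested, edgeR called 0 in each comparison. In OIR against control 5 were higher at an unadjusted p below 0.05 and 1 lower, against 11.1% and 12.7% of all genes. The DNA demethylase Tet2 had 0.47 ± 0.11 (edgeR adjusted p = 0.0637) and the histone demethylases Kdm5a 0.48 ± 0.14 (0.0938), Kdm4c 0.34 ± 0.10 (0.0947), and Kdm5b 0.33 ± 0.10 (0.0987). DESeq2 on the 6 mice called Tet2 and Kdm5a. At an unadjusted p below 0.05, 6 were higher and 1 lower by edgeR in OIR+32-134D against control, and DESeq2 called 1, Tet2 (0.56 ± 0.11 by edgeR). The median was 0.20 in OIR and 0.25 in OIR+32-134D against control, and 0.05 between the OIR groups, where 0 of 16 had an unadjusted p below 0.05.

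The genes whose log2 CPM followed a member most closely over the 9 mice were sought among 13977 other genes, as a description in which mice share group, library depth, and cell makeup. For Egln3 they were Surf4 (Pearson r = 0.99), Lactb2 (0.98), and Creb5 (0.98), and without OIR+32-134D mouse 2 these were at 0.98, 0.97, and 0.96. For Egln1 they were Bnip3l (0.99), Mtpn (0.99), and Bnip3 (0.98), with 0.98, 0.95, and 0.94 without that mouse. Klhl24 (0.96), Tbcel (0.95), and Fam171b (0.95) were closest to Hif1a. Nr2e3, a photoreceptor nuclear receptor (0.99), Ubxn10 (0.98), and Trib2 (0.97) were closest to Epas1, and St6gal2 (0.99), Opa1 (0.97), and Btbd3 (0.97) to Arnt2. No gene was closest to more than 1 of these 5 members.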

How the data were processed

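Total RNA from the retina of 9 mice was sequenced, 3 per group, and the treatment label set each mouse's group. The deposited table gives whole-number counts for every gene, not normalized by the authors, beside a gene length in bases. The submitters' processing notes name CASAVA and HISAT without versions. The counting tool, annotation, strand setting, and filters are not given in the sources used here. Of 54495 gene identifiers found in GENCODE M21, 98.3% had the same position, so coordinates are on GRCm38. Columns of per-sample values without a sample numbered 0.

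Counts were fitted with edgeR 4.0.16 in R 4.3.3, using TMM factors, the default filter by group, and the quasi-likelihood model with 1 mean per group. A gene was called at a Benjamini-Hochberg adjusted p below 0.05 over the 17540 genes tested. Log2 CPM used a prior count of 2, and RPKM was the TMM-scaled CPM per kilobase of deposited length. Differences in 3 ratios of members were tested by exact permutation, two-sided, where 3 mice against 3 cannot give a p under 0.1. Alternatives were DESeq2 1.42.0, limma-voom (limma 3.58.1) with quality weights, fits on the 2 groups compared, other scalings and filters, a limit on the fold change, sex as a covariate, and leaving out each mouse. The scripts were tested on simulated data. No pair of mice had identical counts, and log2 CPM of mice in a group correlated at 0.918 to 0.979. The labels do not say how animals were housed or prepared. The p-values measure the spread between these mice and cannot account for housing or preparation shared within a group. The counting error of a member in 1 mouse, as the Poisson SD, was 0.845% to 10.1% of its count.

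The members and lists were chosen with earlier results of these data known. Named were all 10 members, list genes called in any comparison and otherwise at most 4 of a list with the smallest p, the 3 genes most correlated with each of Hif1a, Epas1, Arnt2, Egln1, and Egln3 (mean log2 CPM of at least 1), and markers given beside a result. Promoter sequences are from RefSeq on GRCm38.p6, read on the strand of the gene. Distances are from the RefSeq start, which for Egln1 lies inside the deposited gene.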

Additional observations from a re-analysis of the deposited data

How the results depend on the processing

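Of 620 member log2 differences recomputed under an alternative, 583 kept direction and side of the threshold, 5 (Egln3 in DESeq2 fits) kept direction but had no adjusted p, 12 passed it only under the alternative, and 20 reversed. The number of members called in OIR against control was 0 by edgeR on all 9 mice but 2 (Arnt and Egln3) with DESeq2 on the 2 groups, with its Cook's cutoff on or off (2531 of all genes called), and with edgeR on the 2 groups (1771), and it ranged from 0 to 2 when 1 mouse was left out, the 2 arising without OIR+32-134D mouse 2 (2272). In OIR+32-134D against control it was 0, but 1 with DESeq2 on all 9 mice (Egln1, 673 of all genes), 1 with the Cook's cutoff off (Egln3, 305), and 2 with DESeq2 on the 2 groups without mouse 2 (Egln1 and Egln3, 731). The settings with the cutoff off and with DESeq2 without mouse 2 were chosen after seeing the data. Called genes of the 4 lists numbered 2 in OIR against control, 11 with DESeq2 on the 2 groups, 0 with sex as a covariate (chosen for the lists after seeing the data), and 0 to 11 with 1 mouse left out, with 11 again without OIR+32-134D mouse 2. In OIR+32-134D against control they numbered 0, 6 with DESeq2, and 0 to 2 with 1 mouse left out. The cause was not tested. Reversals lay in small or uneven differences. In OIR+32-134D against OIR, limma-voom gave 0.0150 for Hif1a, 0.0414 for Epas1, -0.0163 for Vhl, and -0.24 for Egln3, scaling by total counts gave -0.0589 for Vhl, and DESeq2 without mouse 2 gave 0.0186, 0.0425, -0.0465, and -0.87 for Hif1a, Epas1, Vhl, and Egln3. With 1 mouse left out, that comparison ranged from -0.0859 to 0.0414 for Hif1a, -0.0984 to 0.0657 for Epas1, -0.18 to 0.0292 for Arnt, -0.0230 to 0.15 for Vhl, and -0.84 to 1.88 for Egln3, the log2 ratio of Hif1a to Epas1 from -0.0587 to 0.0658, and the Egln3 share from -6.37 to 8.42 percentage points. In OIR+32-134D against control, Arnt2 ranged from -0.11 to 0.23 and the log2 ratio of Arnt2 to Arnt from -0.50 to 0.00392. Total-count scaling moved the median of all genes to 0.10 in OIR against control and -0.09 in OIR+32-134D against OIR. No paired analysis was possible because the numbers in the labels name separate animals and any 2 groups share at most 1 number.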
